A study of Homo sapiens with 8 samples.

Results

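The genes described here encode the machinery that destroys messenger RNA and that silences it through microRNAs: deadenylases, decapping factors, the exosome, nonsense-mediated decay factors, the microRNA processing and effector proteins, and RNA-binding repressors that recruit deadenylases. They were chosen by gene name alone, as symbols that begin with CNOT, XRN, DCP, EDC, UPF, SMG, PAN, TNRC6, AGO, DICER1, DROSHA, DGCR8, PUM, EXOSC, LSM, PATL1, ZFP36 or RC3H, with a digit after the short prefixes. These 49 genes held 998 of the 130622 m6A peaks in 4 lists, which name 8758 genes in all. Of 71 protein-coding RefSeq symbols that match the names, 22 had no peak in the lists used here, among them CNOT1, CNOT2, CNOT8, DCP1A, EDC4, PAN2, XRN1 and AGO4.

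The lists come from MeRIP-seq, in which RNA is enriched with an antibody against N6-methyladenosine (m6A) and sequenced beside input RNA. Each of the 4 groups had 1 immunoprecipitated library: U2OS cells with a lentiviral hairpin against METTL14 (shMETTL14), U2OS cells with a control hairpin (NC), 143B cells with shMETTL14 and 143B cells with NC. U2OS and 143B are established human osteosarcoma lines, and METTL14 is the RNA-binding partner of METTL3 in the complex that writes m6A. Because every group is a single list, the differences below are without replicates and were not tested between groups. Read depth is unknown and the input libraries were not analysed here, so less RNA and less methylation cannot be told apart where a peak is missing. METTL14 knockdown itself could not be checked from peaks.

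As background, a messenger RNA is usually degraded after its poly(A) tail is shortened by the PAN2-PAN3 and CCR4-NOT complexes, after which it is decapped and eaten from the 5' end or digested from the 3' end by the exosome. MicroRNAs guide Argonaute and TNRC6 proteins to messages and bring in the same deadenylases, and nonsense-mediated decay removes messages with a premature stop codon. m6A is tied to this machinery, since the reader YTHDF2 recruits CCR4-NOT to methylated messages and METTL3 has been reported to mark primary microRNA transcripts for DGCR8.

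DGCR8 is the member in which a messenger RNA of the pathway is itself cut by the pathway: the Drosha-DGCR8 complex cleaves hairpins at the start of the DGCR8 message. The 3 mature microRNAs that RefSeq (GRCh38.p14, chromosome 22, plus strand) places inside the DGCR8 gene are shown for this reason, with the seed (bases 2 to 8) in capitals.
hsa-miR-3618: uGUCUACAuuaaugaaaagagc
hsa-miR-1306-5p: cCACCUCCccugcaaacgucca
hsa-miR-1306-3p: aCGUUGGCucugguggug
They lie at chr22:20085797-20085818, chr22:20086072-20086093 and chr22:20086112-20086129, and their 3 seeds differ. The peaks are on hg19, so it was not determined whether a DGCR8 peak covers these hairpins. Coordinates from here on are hg19, counted from 1.

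Most of the decay and microRNA genes carried m6A in every list. Peaks that overlap on 1 strand in any list were joined to sites, since a locus is listed once per isoform (3.31, 3.22, 3.09 and 3.19 member peaks per site within the U2OS shMETTL14, U2OS NC, 143B shMETTL14 and 143B NC lists). This gave 112 sites on the 49 genes. Of these, 42 were in all 4 lists (37.5%, exact 95% interval 28.5 to 47.1), against 5636 of 18714 sites of all genes (30.1%). The intervals cover counting error and treat sites as independent. At least 1 peak in each of the 4 lists was found for 31 of the 49 genes (63.3%), against 4463 of all 8758 genes with a peak in any list (51%): 8 of 9 nonsense-mediated decay genes, 7 of 9 microRNA genes, 4 of 5 exosome genes, 4 of 7 repressors, 3 of 7 deadenylation genes and 3 of 9 decapping genes, with LSM10 and LSM12 beside them. The decapping group here includes the 5' to 3' exonucleases XRN1 and XRN2. All these counts are over genes with a peak. Of all symbols that match the names it was 31 of 71, with 4 of 10 for the exosome, 3 of 13 for deadenylation and 3 of 17 for decapping.

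**Figure D1:**
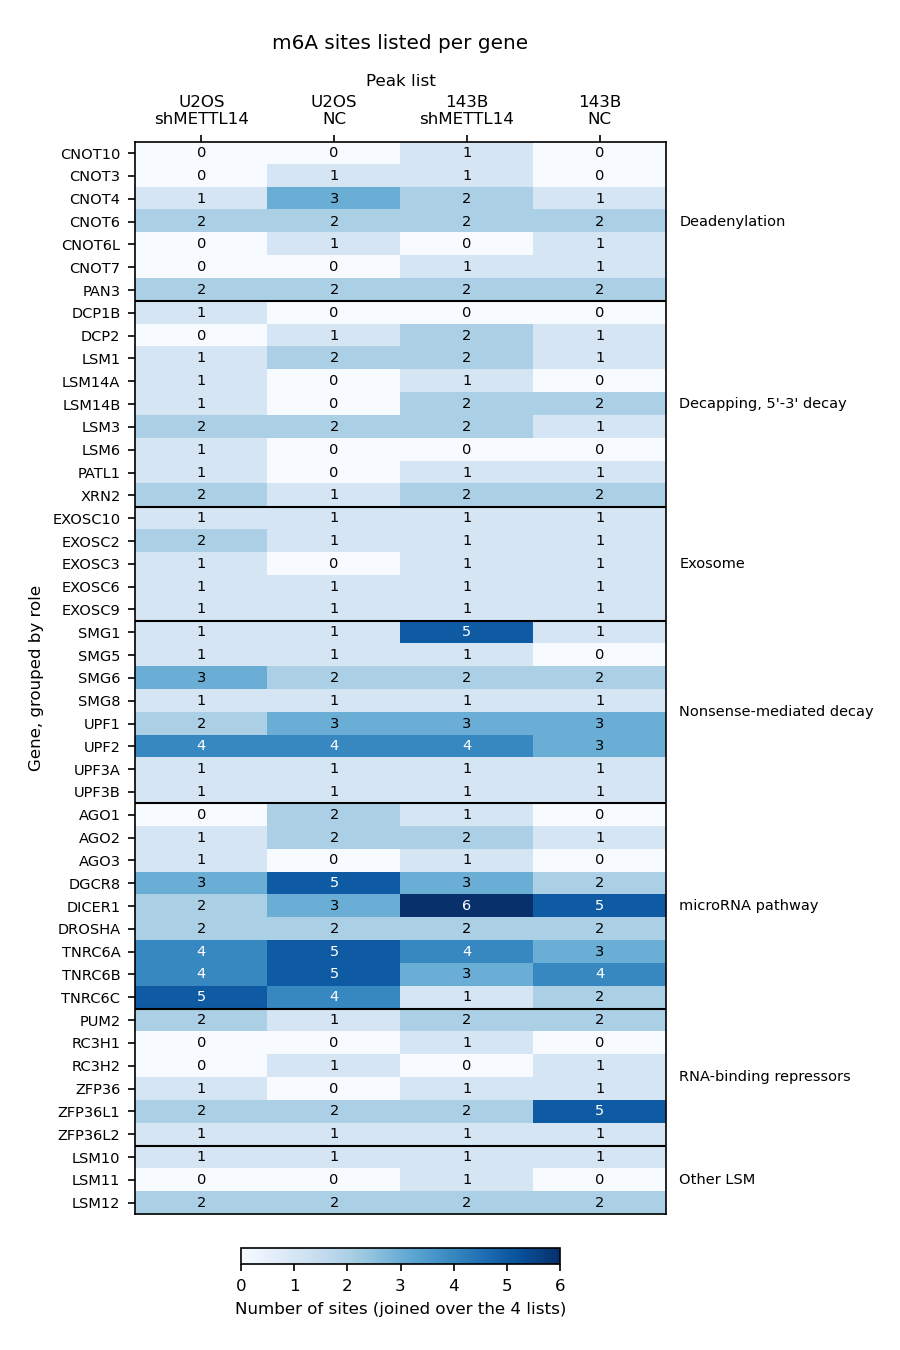
Number of m6A sites (sites joined over the 4 lists) for each gene described by name, with genes in rows grouped by role and the 4 lists in columns. DICER1 has the most in 1 list, with 6 sites in 143B shMETTL14 and 5 in 143B NC, while CNOT6L and RC3H2 have 0 in both shMETTL14 lists and 1 in each NC list.

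The first comparison asks which of these peaks differ between shMETTL14 and NC. An shMETTL14 peak with no overlapping NC peak is called gained and an NC peak with no overlapping shMETTL14 peak is called lost (at least 1 bp of spliced sequence, same strand); the words describe the lists. In U2OS, 258 member peaks with shMETTL14 stood against 248 with NC (ratio 1.04), in lists of 29992 and 32353 peaks (ratio 0.927). Gained were 51 of the 258 (19.8%, interval 15.1 to 25.2) and lost 50 of the 248 (20.2%, interval 15.4 to 25.7), against 20.9% gained and 26.9% lost over all peaks of the lists. The gained share is near that of all peaks. In 143B, 269 member peaks with shMETTL14 stood against 223 with NC (ratio 1.21), in lists of 35195 and 33082 peaks (ratio 1.06). Here 56 of the 269 were gained (20.8%, interval 16.1 to 26.2) and 20 of the 223 lost (8.97%, interval 5.56 to 13.5), against 27.3% and 20.7% over all peaks. Intervals on peaks treat each peak as independent although a locus is listed once per isoform, so they are too narrow. The 20 peaks lost in 143B came from 7 genes. Losses among the decay and microRNA genes in 143B were fewer than in the whole list, in peaks and also in sites. Of 70 sites 8 were lost (11.4%, interval 5.07 to 21.3), against 24.6% of all sites of the list. This gap was not seen among the peaks with p-values up to the median of the NC list, of which 15 of 130 member peaks (11.5%) and 12.2% of all peaks were lost. By gene, 13 had more sites with shMETTL14 than with NC in U2OS and 13 had fewer, whereas in 143B 19 had more and 5 fewer. In U2OS this is 26.5% of the members in each direction, against 16.8% more and 24.1% fewer over all 8758 genes. In 143B it is 38.8% more and 10.2% fewer, against 27.6% and 18.9% of all genes.

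The number of peaks with no partner varied by role. Over all peaks, 20.9% were gained and 26.9% lost in U2OS, and 27.3% and 20.7% in 143B. The decapping group, with XRN2, had the highest shares in U2OS, with 15 of 20 shMETTL14 peaks gained and 6 of 9 NC peaks lost. Of these, 3 of the gained peaks were on XRN2, and the lost ones came from 2 genes. In 143B 8 of 26 were gained and 0 of 17 lost. Nonsense-mediated decay genes had 4 of 63 gained and 2 of 58 lost in U2OS, and 20 of 65 gained and 0 of 45 lost in 143B. The microRNA genes had 16 of 87 gained and 31 of 102 lost in U2OS, and 17 of 94 gained and 9 of 82 lost in 143B. Deadenylation genes had 3 of 23 gained and 8 of 26 lost in U2OS, and 7 of 26 gained and 5 of 21 lost in 143B. The exosome genes lost 0 of 11 peaks in U2OS and 0 of 14 in 143B, and gained 6 of 20 and 0 of 14. Several of these shares lay near those of all peaks. The microRNA genes in U2OS had 18.4% gained and 30.4% lost, and the deadenylation genes in 143B 26.9% and 23.8%. These groups are small and share loci among isoforms, and no test between them was made.

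**Figure D2:**
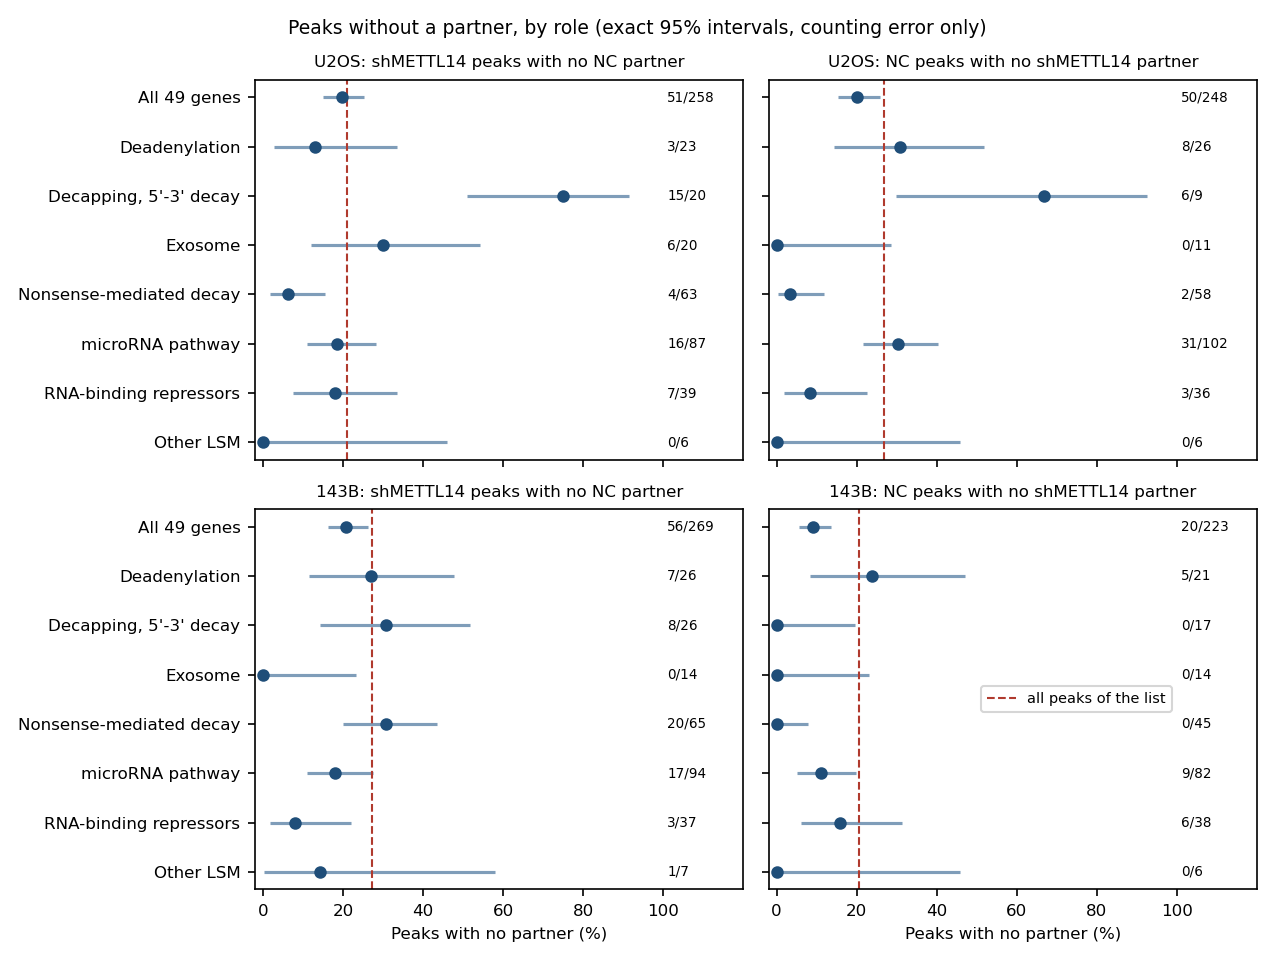
Share of peaks with no partner in the other hairpin's list (x axis, percent) by role group, with exact 95% intervals and counts at the right; left panels show gained and right panels lost peaks, and the dashed line is the share over all peaks of that list. For nonsense-mediated decay genes the lost share is 3.45% in U2OS and 0 of 45 in 143B, left of the dashed lines at 26.9% and 20.7%.

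Among deadenylation genes, CNOT6 and PAN3 kept all their peaks in both lines and CNOT6L was listed with NC and not with shMETTL14 in either line. CNOT6 and CNOT6L are alternative deadenylase subunits of CCR4-NOT, and PAN3 is the RNA-binding subunit of the PAN2-PAN3 deadenylase. CNOT6L had 0 peaks with shMETTL14 in both lines, against 4 in U2OS NC and 5 in 143B NC, all at 1 site in the coding sequence and reaching the start codon (chr4:78695868-78740458). All 4 U2OS NC peaks overlapped 143B NC peaks. These peaks were weak: the lowest authors' p-value was 0.0016 in U2OS NC and 0.00047 in 143B NC, with fold enrichments of 3.37 to 4.11 and 5.22 to 8.48. CNOT6 had a site across the start codon (chr5:179921417-179991492) at best fold enrichments of 6.54 with shMETTL14 and 12.8 with NC in U2OS, and of 13.3 with shMETTL14 and 6.52 with NC in 143B, and a second one across the stop codon (chr5:180001066-180001403). PAN3 had a stop codon site (chr13:28866539-28866905) at 7.3 and 5.56 in U2OS and 5.5 and 5.83 in 143B (shMETTL14 and NC), with a 3' UTR site after it in all lists.

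The other CCR4-NOT members were less regular. CNOT4 is a ubiquitin ligase associated with the complex. It had 15 peaks in U2OS shMETTL14 against 11 in U2OS NC, and 10 in 143B shMETTL14 against 2 in 143B NC. In sites, however, it had 1 with shMETTL14 against 3 with NC in U2OS, and 2 against 1 in 143B. Of its 3 sites, 1 in the coding sequence (chr7:135078749-135080573) was in all 4 lists. Another (chr7:135073508-135078681) was in U2OS NC alone, at a best fold enrichment of 12.8 but a lowest authors' p-value of only 0.0016. The last (chr7:135047684-135047777) was in U2OS NC and 143B shMETTL14. CNOT7, a catalytic deadenylase, had 4 peaks at the start codon or in the 5' UTR in each 143B list and 0 in both U2OS lists. CNOT3, a subunit of the complex's NOT module, had 1 coding peak in U2OS NC and 1 in 143B shMETTL14 and none in the other lists, at fold enrichments of 2.57 and 6.43, on the patch sequence KB021647.1. CNOT10 had 2 peaks in 143B shMETTL14 at a fold enrichment of up to 1.83.

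Of the 15 sites of decapping factors and XRN2, 2 were in all 4 lists, on LSM3 and XRN2. DCP2, the decapping enzyme, had 0 peaks in U2OS shMETTL14 against 3 in U2OS NC, and 6 in 143B shMETTL14 against 3 in 143B NC. Its stop codon site (chr5:112346499-112349230) was in the U2OS NC, 143B shMETTL14 and 143B NC lists at best fold enrichments of 2.13, 2.3 and 2.22. A 3' UTR site at 12.2 (chr5:112352658-112352735) was listed in 143B shMETTL14 alone, with a weak authors' p-value of 0.0018 and peaks of 61 nt. Its cofactor DCP1B had 3 peaks in U2OS shMETTL14 (fold enrichment up to 2.92) and none in the other lists. In U2OS, the decapping activator PATL1 and the P-body proteins LSM14A and LSM14B had peaks with shMETTL14 and none with NC. The LSM14A peaks there lay on the patch sequence GL383574.1. In 143B, PATL1 and LSM14B were listed with both hairpins and LSM14A with shMETTL14, at another 3' UTR site (chr19:34718672-34718862). LSM1, the subunit that sets the cytoplasmic LSM ring apart from the nuclear one, had 2 sites: its 3' UTR site (chr8:38020853-38021089) was in every list but U2OS shMETTL14 and its other site in every list but 143B NC. At that other site the U2OS NC and U2OS shMETTL14 peaks did not overlap and were joined through 143B shMETTL14. In U2OS all 3 NC peaks of LSM1 were thus lost and its 2 shMETTL14 peaks gained. LSM3, a subunit of both rings, had a 3' UTR site (chr3:14239699-14239907) in all 4 lists and a 5' UTR site missing from 143B NC. LSM6, likewise in both rings, had 2 peaks in U2OS shMETTL14 and none elsewhere.

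XRN2, the nuclear 5' to 3' exonuclease, had 6 peaks in U2OS shMETTL14, 1 in U2OS NC, 6 in 143B shMETTL14 and 6 in 143B NC, all in the coding sequence and at fold enrichments from 1.51 to 2.29. Of its sites, chr20:21314624-21321405 was in every list and chr20:21307215-21311270 was missing from U2OS NC, with 3 gained peaks in U2OS.

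The exosome genes had most of their sites at or near the stop codon. EXOSC10, a catalytic subunit, EXOSC6 and EXOSC9, ring subunits, and the cap subunit EXOSC2 had such a site in all 4 lists. EXOSC3, another cap subunit, had one in 3 lists, without U2OS NC. The EXOSC6 site (chr16:70284134-70285058) had best fold enrichments of 15.5 in U2OS shMETTL14, 12 in U2OS NC, 15.2 in 143B shMETTL14 and 14.8 in 143B NC. EXOSC9 (chr4:122732808-122738066) lay between 3.64 and 4.63 in the 4 lists, with a lowest p-value of 1.6e-47 in 143B shMETTL14 by the authors' peak calls.

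EXOSC2 held the highest fold enrichment of the whole 143B shMETTL14 list. Its site across the stop codon and 3' UTR (chr9:133578507-133580248) had best values of 16.3 in U2OS shMETTL14, 21.8 in U2OS NC, 172 in 143B shMETTL14 and 10.9 in 143B NC. The next gene in the 143B shMETTL14 list, DFFA, stood at 84.2. The value depended on the isoform: in that list the peaks on ENST00000372351.3, ENST00000372352.3 and ENST00000372358.5 had 172, 172 and 171, whereas the peak on ENST00000546165.1, the shortest of the 4, ended at position 133579446 and had 3.1. On ENST00000546165.1 the other lists gave 4.12 in U2OS shMETTL14, 3.28 in U2OS NC and 3.33 in 143B NC. In U2OS shMETTL14 the longer isoforms carried 2 peaks each, one over the stop codon at 3.98 to 4.04 and one in the distal 3' UTR at 13.4 to 16.3, so in each list the high values went with peaks that reach the distal 3' UTR. Fold enrichments are the authors' values, made per list, and do not measure a change between lists.

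Nonsense-mediated decay genes held some of the lowest p-values and few lost peaks. UPF2 and UPF3A, which link the helicase UPF1 to the exon junction complex, were among the 5 members with the lowest p-values in every list. The UPF3A site (chr13:115051835-115070629), spliced and ending past the stop codon, had best fold enrichments of 11.2 with shMETTL14 and 8.09 with NC in U2OS, and of 7.28 with shMETTL14 and 8.14 with NC in 143B. The lowest p-values there were 1.0e-101, 2.0e-80, 2.5e-93 and 7.9e-60, in the order U2OS shMETTL14, U2OS NC, 143B shMETTL14 and 143B NC, as given in the authors' peak calls. UPF2 had 4 sites, of which 3 were in all lists. The strongest of them spanned the start codon (chr10:12056083-12084963) at best fold enrichments of 12.2, 11, 16.1 and 13 in the same order. UPF3B, the X-linked relative of UPF3A, had its stop codon site (chrX:118968438-118979164) at 6.54, 6.16, 10.6 and 8.41. All peaks of UPF3A, UPF3B and SMG8, a subunit of the SMG1 kinase complex, had partners in both lines.

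The differences among nonsense-mediated decay genes lay in a few loci. SMG1, the kinase that phosphorylates UPF1, had 6 peaks in each U2OS list, all in a site at the stop codon and 3' UTR (chr16:18820039-18823145) that was also in both 143B lists. In 143B it had 14 peaks with shMETTL14 against 3 with NC, and 11 of the 14 were gained, at 2 coding sites and 2 sites in the 3' UTR that were in that list and no other, with best fold enrichments of 2.69 to 12.2. SMG1 has near-identical copies on chromosome 16, so its reads may be shared with them and these peaks are uncertain. SMG6, the endonuclease of the pathway, carried 3 neighbouring sites in 1 coding stretch between positions 2202360 and 2203857 of chromosome 17, of which 1 was in all lists. UPF1 kept all peaks in 143B and lost in U2OS the 2 peaks of 1 of its 3 sites (chr19:18977457-18977820). SMG5, an adaptor that binds phosphorylated UPF1, had 1 peak in each U2OS list at 1 3' UTR site and 1 peak in 143B shMETTL14 at another, against 0 in 143B NC.

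In the microRNA pathway DROSHA kept all its peaks, while DGCR8 and DICER1 each lost 7 in U2OS. DROSHA, the nuclease that cuts primary microRNA transcripts, had 17 peaks in U2OS shMETTL14, 15 in U2OS NC, 15 in 143B shMETTL14 and 16 in 143B NC, and all had partners. These formed 2 sites, in the coding sequence (chr5:31511221-31526954) and at the stop codon (chr5:31401326-31406961), with best fold enrichments between 3.8 and 7.17. DGCR8, its RNA-binding partner, had 9 peaks with shMETTL14 against 16 with NC in U2OS, and 7 with shMETTL14 against 6 with NC in 143B. Its stop codon site (chr22:20096467-20097726) and the first 3' UTR site (chr22:20097869-20098144) were in all lists. The 7 peaks lost in U2OS lay at a coding site (chr22:20073614-20073734, fold enrichment 3.85) and a distal 3' UTR site (chr22:20099155-20099249, 10.9), and neither was listed in 143B with either hairpin. A second coding site of DGCR8 (chr22:20074003-20074720) was in every list but 143B NC.

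DICER1, which cuts precursor microRNAs in the cytoplasm, had more peaks in 143B than in U2OS. It had 35 peaks in 143B shMETTL14 and 29 in 143B NC, against 9 in U2OS shMETTL14 and 16 in U2OS NC. A stop codon site (chr14:95556658-95556911) and a spliced coding site (chr14:95582996-95590891) were in all 4 lists. Between them lay 4 more coding sites. The one at chr14:95562853-95566225 was absent from U2OS shMETTL14 and listed in U2OS NC at 3.53, 143B shMETTL14 at 4.02 and 143B NC at 2.51. Those at chr14:95562488-95562673 and chr14:95569814-95570306 were in both 143B lists and neither U2OS list, and the last (chr14:95562161-95562343) was in 143B shMETTL14 alone. Its 7 lost peaks in U2OS and its 7 gained peaks in 143B are therefore 1 site each, counted once per isoform.

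Argonaute genes, whose proteins hold the microRNA, had at most 4 peaks each in a list. AGO1 had 0 peaks in U2OS shMETTL14 and 3 in U2OS NC, but 2 in 143B shMETTL14 and 0 in 143B NC. One of its 3' UTR sites (chr1:36385366-36385516) was in U2OS NC at 2.66 and in 143B shMETTL14 at 3.96, and the other (chr1:36390449-36390748) was in U2OS NC alone at 6.85. AGO2, the Argonaute that can slice its target, kept a 3' UTR site (chr8:141541729-141542127) in all lists at 2.77 to 4.8. Its coding site (chr8:141566304-141567206) was in U2OS NC and 143B shMETTL14 at 1.72 and 1.75. AGO3 had 1 peak in each shMETTL14 list and none with NC, at 3' UTR places that do not overlap, with fold enrichments of 10.9 in U2OS and 19.9 in 143B. The authors' p-values were 0.0039 in U2OS, where the highest of the whole list is 0.005, and 1.5e-05 in 143B.

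The TNRC6 genes, which encode the GW182 scaffolds that bridge Argonaute to the deadenylases, together held 20 of the 112 sites. TNRC6A and TNRC6B had 7 sites each and TNRC6C 6, and each of the 3 genes had at least 1 coding site in all 4 lists. The TNRC6A coding site at chr16:24801615-24802634 had best fold enrichments of 15.3 in U2OS shMETTL14, 5.54 in U2OS NC, 9.14 in 143B shMETTL14 and 6.25 in 143B NC. TNRC6B had a long coding site (chr22:40661103-40662740) at 6.9, 6.64, 5.61 and 5.75 in the same order and a stop codon site (chr22:40719153-40719607). TNRC6C had a coding site (chr17:76045591-76045953) at 7.26, 9.24, 27.7 and 14.3.

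Peaks without a partner occurred in all 3 TNRC6 genes and in both lines. TNRC6C had 27 peaks in U2OS shMETTL14 against 20 in U2OS NC, and 6 in 143B shMETTL14 against 10 in 143B NC. The 10 gained TNRC6C peaks in U2OS were 6 at a coding site (chr17:76046481-76046729, 11.4) and 4 at a 3' UTR site (chr17:76101122-76101297, 8.17). A different 3' UTR site of TNRC6C (chr17:76102609-76102797) was listed with NC in both lines, at 4.62 in U2OS and 9.13 in 143B, and with shMETTL14 in neither. TNRC6A lost in U2OS a 3' UTR peak at 16.7 (chr16:24837332-24837428), the highest fold enrichment among the member peaks lost there. TNRC6B gained in U2OS a 3' UTR peak at 17.4 (chr22:40729261-40729444), the highest among the gained ones.

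Of the RNA-binding repressors, which bind short motifs in 3' UTRs, ZFP36L2 kept its 1 peak per list in both lines, at chr2:43450852-43451746 over the 3' UTR and, in 143B, the stop codon, with fold enrichments of 6.8 with shMETTL14 and 5.03 with NC in U2OS and of 7.81 with shMETTL14 and 7.3 with NC in 143B. ZFP36L1, a binder of AU-rich elements, had the lowest p-value of any member in each list, 1.0e-130 in U2OS shMETTL14, 2.0e-97 in U2OS NC, 1.0e-93 in 143B shMETTL14 and 1.0e-94 in 143B NC by the authors' calls. This site (chr14:69255214-69262796) covered 1929, 1694, 1844 and 1796 nt of spliced sequence in the same order, from the start codon into the 3' UTR, at best fold enrichments of 4.31 to 4.57. ZFP36L1 also had a distal 3' UTR site (chr14:69254377-69254558) that was listed with NC in both lines and with shMETTL14 in neither, at fold enrichments of 1.45 in U2OS and up to 2.04 in 143B. A U2OS shMETTL14 site at 1.43 (chr14:69254585-69254674) lay 26 bases from it. In 143B NC and no other list it had a peak at 20.9 (chr14:69261821-69262029), the highest fold enrichment among the member peaks lost in 143B. Near it lay another lost peak, also in 143B NC alone, at 6.52 (chr14:69261583-69261672). The founding relative ZFP36 had 2 peaks in U2OS shMETTL14 and 0 in U2OS NC, and 4 and 3 in 143B. Of its 143B peaks, 1 with NC was lost, at 15.7 (chr19:39898635-39898694), and 2 with shMETTL14 were gained.

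PUM2 had a 3' UTR site in all lists (chr2:20451055-20451421), and a second site that was missing in U2OS NC. At the second site the peaks lay in the 5' UTR in U2OS shMETTL14 and across the start codon in 143B NC. In 143B shMETTL14 they lay in the coding sequence or across the start codon. RC3H2, which like RC3H1 encodes a Roquin protein that binds stem-loops, had 1 peak in each NC list and 0 with shMETTL14 in both lines, but the places differ: 3' UTR in U2OS (chr9:125606925-125606985) and 5' UTR in 143B (chr9:125659848-125667440), with p-values of 0.0015 and 0.0045 in the authors' lists. RC3H1 had 1 peak, in 143B shMETTL14. Of LSM genes with no known part in decapping, LSM10 and LSM12 kept all their peaks and LSM11 had 1 peak in 143B shMETTL14; LSM10 and LSM11 belong to the U7 particle that processes histone messages.

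The second comparison asks which sites behaved alike in both lines. Listed with NC in both lines and with shMETTL14 in neither were 3 member sites (2.68%, interval 0.556 to 7.63), on CNOT6L, TNRC6C and ZFP36L1, against 359 of all 18714 sites (1.92%). The ZFP36L1 site counts here although a U2OS shMETTL14 site of like fold enrichment lay 26 bases away. Listed with shMETTL14 in both lines and with NC in neither were 0 of 112, which allows a share of up to 3.24% by the exact interval, against 422 of all sites (2.25%). Opposite listing, in U2OS NC and 143B shMETTL14, was seen for 5 sites (4.46%, interval 1.47 to 10.1), on AGO1, AGO2, CNOT3, CNOT4 and TNRC6A, against 2.43% of all sites. The reverse, in U2OS shMETTL14 and 143B NC, was seen for 0 of 112 sites (upper bound 3.24%), against 1.05% of all sites. All 4 intervals hold the share of all sites, so no difference was detectable with 112 sites. Sites in 1 list numbered 35, and 4 of these were in 143B NC (3.57%, interval 0.982 to 8.89) against 10.3% of all sites, which lies above the interval. This was picked from all presence patterns, and the interval of every other pattern held the share of all sites. No correction was made for the number of patterns, and the intervals treat sites of the same gene as independent.

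**Figure D3:**
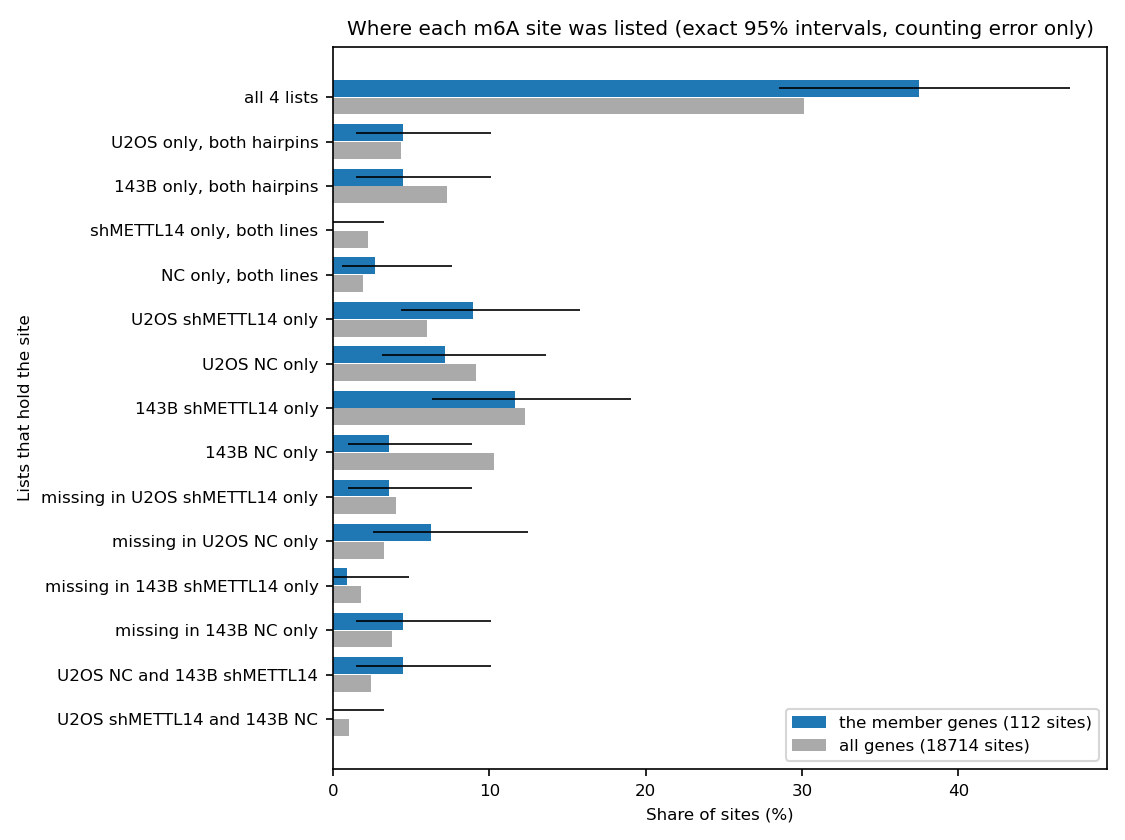
Share of sites (x axis, percent) by the set of lists that hold them, for the 112 sites of the decay and microRNA genes (blue, with exact 95% intervals) and for all 18714 sites (grey). The 37.5% in all 4 lists stands against 30.1% of all sites. The 143B NC bar is 3.57% against 10.3%, the only pattern whose interval misses the share of all sites.

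Between the lines, 62 of 258 member peaks in U2OS shMETTL14 had no 143B shMETTL14 partner (24.0%), against 22.0% over all peaks, and 81 of 269 in 143B shMETTL14 had no U2OS partner (30.1%), against 34.6%. With NC, 63 of 248 U2OS peaks had no 143B partner (25.4%; 30.2% over all peaks) and 46 of 223 143B peaks had no U2OS partner (20.6%; 31.4% over all peaks). Sites in both lists of 1 line and in neither of the other numbered 5 for U2OS (among them sites of SMG5, SMG6 and TNRC6C) and 5 for 143B (CNOT7, DICER1, LSM14B and ZFP36L1). Each is 4.46% of the member sites, against 4.33% of all sites for U2OS and 7.26% for 143B.

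The peaks without a partner were shorter and had weaker p-values than those with one. Gained member peaks in U2OS had a median authors' p-value of 0.00044, against 1.9e-07 for the other shMETTL14 member peaks, and lost ones 0.00011, against 3.3e-08 for the NC member peaks that were kept. In 143B the medians were 0.00046 for gained peaks against 4.0e-11 for the rest, and 0.0004 for lost peaks against 1.3e-07 for the rest. Median spliced width was 150 nt for gained and 240 nt for other shMETTL14 member peaks in U2OS, and 91 nt for lost and 269 nt for kept NC peaks. The same held over all peaks of the lists: lost peaks had a median p-value of 0.00031 in U2OS and 0.00044 in 143B in the authors' calls, against 2.9e-08 and 4.2e-07 for kept ones. Of the 51 gained member peaks in U2OS, 8 had a p-value at or below 1.0e-06 (15.7%, against 6.69% of all gained peaks), and of the 56 in 143B 4 had one (7.14%, against 12.1%). Of the 70 lost member peaks, 1 had a p-value at or below 1.0e-06, against 125 of the 198 kept in U2OS and 120 of the 203 kept in 143B. Over all peaks, 6.6% of the lost ones in U2OS and 5.19% in 143B had such a value, against 60.5% and 53.0% of the kept ones. Median fold enrichment did not follow this order in both lines: it stood at 3.36 for lost and 3.65 for kept NC member peaks in U2OS, and in 143B it was higher for the lost ones, at 5.6 against 3.39. Whether peak strength accounts for the shares above was not tested.

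**Figure D4:**
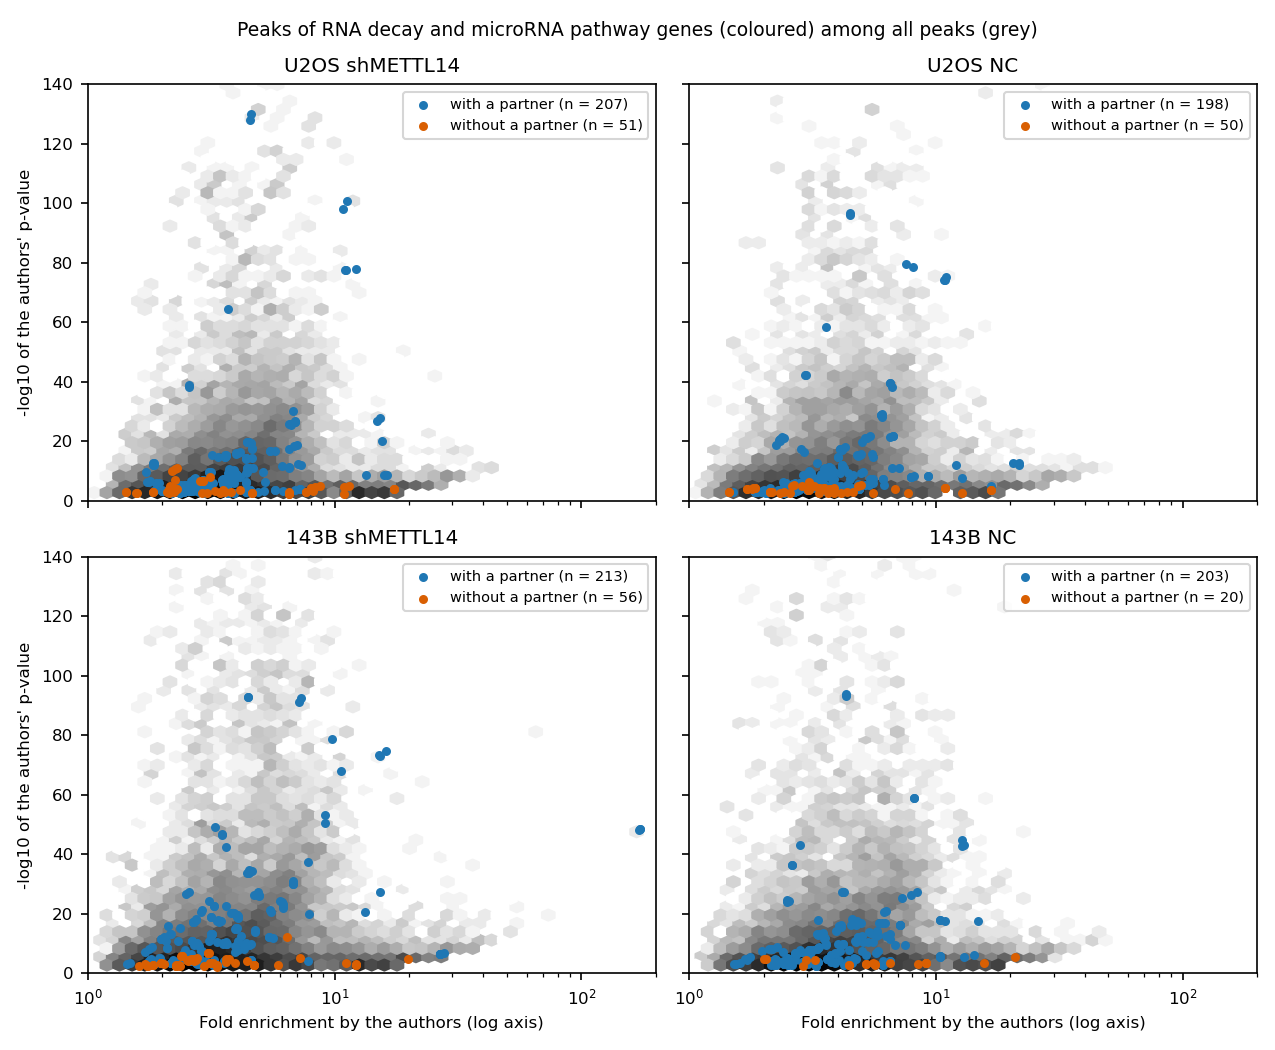
Fold enrichment (x axis, log scale) and -log10 of the p-value (y axis, cut at 140), both the authors' values, for member peaks with a partner (blue) and without (orange) among all peaks of each list (grey, darker where there are more). Orange points stay near the bottom, with median p-values of 0.00011 to 0.00046, and the 3 EXOSC2 peaks at 171 to 172 stand apart in 143B shMETTL14.

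The decay and microRNA genes were close to all genes in where on the transcript most of their peaks lay. Coding peaks made up 58.5% of member peaks in U2OS shMETTL14 (all peaks 54.2%), 56.5% in U2OS NC (53.6%), 53.5% in 143B shMETTL14 (50%) and 48.4% in 143B NC (50.3%). Peaks across the stop codon were 17.4%, 16.1%, 17.8% and 17.9% in the same order, against 15.7%, 15.7%, 16.6% and 16.3% of all peaks. Peaks across the start codon were 2.71%, 3.23%, 5.2% and 8.97% of member peaks in the same order, against 4.92%, 4.91%, 5.17% and 5.33% of all peaks. In 143B NC the exact interval of this share was 5.56 to 13.5, so the 5.33% of all peaks lay below it. Within the 3' UTR lay 20.2%, 23.4%, 21.9% and 23.8%, against 22.4%, 22.7%, 25% and 25% of all peaks. In U2OS, 16 of the 51 gained (31.4%) and 19 of the 50 lost member peaks (38%) were 3' UTR peaks, against 31.6% of all gained and 31.1% of all lost peaks. In 143B this was so for 22 of the 56 gained (39.3%) and 11 of the 20 lost (55%), against 35.8% and 35.5%. Peaks wholly in the 5' UTR were few, 3, 2, 4 and 2 of the member peaks. These are 1.16%, 0.806%, 1.49% and 0.897%, lower in each list than the 2.56%, 2.8%, 2.83% and 2.8% of all peaks. For these 5' UTR peaks the exact interval held the share of all peaks in each list. The median fold enrichment of member peaks was 3.58 to 3.59 in the U2OS lists, 3.15 in 143B shMETTL14 and 3.57 in 143B NC, against 3.54 to 3.8 for all peaks.

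At the 42 sites in all lists the 2 hairpins marked largely the same bases. The bases covered by both hairpins' peaks made up a median 0.76 of those covered by either in U2OS (range 0.255 to 1) and 0.796 in 143B (0.399 to 0.977), against medians of 0.741 and 0.75 over all 5636 such sites. The UPF3A and EXOSC6 sites were covered identically in U2OS, and the CNOT4 site overlapped least there.

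Other genes of the pathway, taken from a list of 59 symbols outside the name rule, had peaks for 40 genes, 26 of them in all 4 lists. In U2OS, 69 of 262 shMETTL14 peaks were gained (26.3%) and 23 of 210 NC peaks lost (11%), beside 20.9% and 26.9% over all peaks. RNPS1, a component linked to the exon junction complex, gave 30 of the 69, with 30 peaks in U2OS shMETTL14 against 0 in U2OS NC, and 32 in 143B shMETTL14 against 20 in 143B NC. In 143B, 52 of 281 were gained (18.5%) and 26 of 250 lost (10.4%), beside 27.3% and 20.7%. PABPC1, the cytoplasmic poly(A)-binding protein, HNRNPD, KHSRP and EIF4E2 kept all their peaks in both lines. ELAVL1, which binds AU-rich elements, had 0 peaks in U2OS shMETTL14 against 4 in U2OS NC, and 4 in both 143B lists.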

How the data were processed

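Peak lists of the 4 immunoprecipitated libraries of the series (8 libraries with the inputs) were used, 1 list per group. The submitters' processing notes name HISAT2, Trimmomatic, FastQC 0.11.5 and the build hg19. No source used here gives the peak caller, its threshold or the depth. Per the file headers, each peak has a fold enrichment (a linear ratio) and a p-value, both made and deposited by the authors; here they serve only within a list. Members were matched on the gene name column. Peaks were compared by spliced blocks on the same strand (at least 1 bp), and sites were joined over all 4 lists. A peak over more than 1 part of the transcript is named by the codon between them. Intervals of shares are exact (Clopper-Pearson, 95%) and cover counting error only. No test was made between groups. Named are members listed with 1 hairpin, members with shared or opposite listing, those with most sites and those that kept all peaks. Of the top 10 lost and gained peaks by fold enrichment per line, some are given and some are not. Other members were named after their values were seen. Some members count in the totals but are not reported here by name. The members, role groups and lists were chosen with earlier results of these data known. Overlap and joining were tested on simulated data. Alternatives are listed in the closing section. Python 3.11.15, numpy 2.4.6, pandas 2.3.3, scipy 1.17.1 and matplotlib 3.10.9 were used. RefSeq microRNA sequences are on GRCh38.p14; no hg19 sequence was used.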

Additional observations from a re-analysis of the deposited data

Results flagged for a closer look

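For 9 of the 49 genes the number of sites, and of peaks, with shMETTL14 minus NC had opposite signs in the 2 lines; with 1 list per group the difference between the lines was not tested. Of all 8758 genes, 727 did so (8.3%), against 18.4% of the 49. In U2OS the difference in sites was -1 for CNOT3, DCP2, LSM1, AGO2, DICER1 and TNRC6A and -2 for AGO1 and DGCR8, and in 143B it was 1 for each of these 8 genes. TNRC6C ran the other way, with 1 in U2OS and -1 in 143B. Of the 9 genes, 6 belong to the microRNA group, which also holds the most sites (39 of 112). In peaks the differences were -7 in U2OS and 6 in 143B for DICER1, -7 and 1 for DGCR8, and 7 and -4 for TNRC6C. Over all 49 genes, 13 had more and 13 fewer sites with shMETTL14 in U2OS, and 19 had more and 5 fewer in 143B.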

How the results depend on the processing

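Of 64 values recomputed under other settings, 45 stayed within the interval of the reported share (or within 1.5 times a ratio). Asking for an overlap of 50% of each peak put the gained and lost shares at 41.1% and 37.9% in U2OS and at 34.2% and 19.3% in 143B, against 37.0%, 41.7%, 43.1% and 39.5% of all peaks. Using peaks above the median fold enrichment in both lists gave 33.8% and 36.6% in U2OS and 32.1% and 23.8% in 143B, against 33.3%, 37.9%, 38.2% and 34.2% of all peaks. Cutting the partner list alone in this way gave 50.4% and 46.0% in U2OS and 58.4% and 51.1% in 143B. The shares of all peaks were 54.2%, 57.1%, 58.4% and 51.8%. Fewer partner peaks can only raise these shares, for members and for all peaks. With this cut the lower loss among members was not seen in 143B, whereas in U2OS it was. The reason was not tested. Counted in sites joined within a list, the shares were 25.6% gained and 27.3% lost in U2OS and 27.6% gained in 143B, against 24.9%, 31.2% and 32% of all sites. In genes 13.5% were lost in U2OS and 5.13% in 143B, against 16.9% and 11.8% of all genes. With 1 transcript per gene, 30.7% were gained in 143B, against 32.6% of all. The ratio of U2OS member peaks, shMETTL14 over NC, was 1.04 (0.927 over all peaks) and turned to 0.978 when both lists were held to the NC list's median p-value or lower; the cause was not tested. In 143B it was 1.21 (1.06 over all peaks), with a range of 1.01 to 1.29. Leaving out patch sequences, or the gene with the most lost or gained peaks, was added after the data were seen, and each share stayed within its interval. The share of peaks with the DRACH motif was planned and not run. No paired analysis was possible because each group has 1 list and the result comes from no test. Depth is unknown, so a weak peak absent from a list is not shown to be absent from the RNA.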
